A study of Mus musculus with 2 samples.

Results

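The genes described here are 8 genes of the Schwann cell lineage: Mbp, Pmp22, Prx and Mag, which belong to myelin and the myelinating cell, the lineage transcription factor Sox10, the surface receptor Ngfr, the adhesion molecule Ncam1 and the calcium-binding protein gene S100b. They were taken by symbol from the gene list of the deposited matrix, so that 8 of its 32285 genes are the subject, and each symbol matched 1 row. The study profiled single cells of the dorsal skin of male wild-type mice aged 9 or 108 weeks. For each age, skin from 2 animals was pooled, digested with enzymes, sorted for cells positive for F4/80 and high in MHCII, and made into 1 droplet library with Chromium 3' v3.1 chemistry. The deposited matrix holds both libraries, marked only by a barcode suffix, and no source used here ties a suffix to an age. The ages were therefore not compared, the matrix was treated as 1 sample, and values are given for both libraries together and, where they differ, for suffix 1 and suffix 2.

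A UMI is a tag that marks 1 captured RNA molecule, and levels are given as CPM, the UMIs of a gene per 1000000 UMIs of the cells named. Of 5257 barcodes, 3797 were kept (500 or more genes, 1000 or more UMIs, mitochondrial UMIs not above 10%), 2396 with suffix 1 and 1401 with suffix 2, and their median was 10870 UMIs. The libraries shared 1 barcode and no kept cell. Clusters were made without the 8 genes and named by markers that do not include them. They gave 1209 macrophage-like, 827 fibroblast-like, 291 endothelial-like and 126 Schwann-like cells, smaller classes of dendritic-like, muscle-like, keratinocyte-like, lymphatic endothelial-like, T and NK-like and mast-like cells, and 840 cells in unnamed clusters. The sort was for macrophages, and 11 of 11 macrophage markers reached 20 CPM in macrophage-like cells, while Adgre1, which encodes F4/80, was at 443 CPM there and at 13.5 CPM in Schwann-like cells. The intervals below are exact 95% intervals for the counts. They describe the error of counting alone, as single cells do not replicate a condition, and no test was possible with 1 sample.

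Schwann cells are the glia of peripheral nerve and come from the neural crest. A myelinating Schwann cell wraps a single large axon in compact myelin, whereas a non-myelinating, or Remak, cell holds several thin axons in separate folds, as in the sensory and sympathetic fibres of skin. Mbp binds the inner faces of the myelin membrane together, Pmp22 is a membrane protein of compact peripheral myelin, Prx (periaxin) links the outer Schwann membrane to the surrounding basal lamina through dystroglycan, and Mag is a sialic acid-binding adhesion molecule on the membrane that faces the axon. Sox10 sets the glial lineage and is needed at every later stage of it. Ngfr is the low-affinity neurotrophin receptor p75 and Ncam1 is a homophilic adhesion molecule, and in adult nerve both mark immature and non-myelinating Schwann cells. S100b is widely used as a marker of Schwann cells of both kinds.

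The Schwann-like class was 1 cluster of 57 cells with suffix 1 and 69 with suffix 2, which is 3.32% of the kept cells (2.38% and 4.93%). All 12 Schwann markers reached 20 CPM in it, among them the lineage genes Cdh19, Erbb3 and Foxd3. The 6 melanocyte markers, genes of the other neural crest lineage of skin, summed to 41.7 CPM there, and Mlana was at 0. The class held 887331 UMIs with a median of 4961.5 per cell, below the median of every named class but the muscle-like and mast-like ones.

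Mbp stood at 4206 CPM (95% interval 4072 to 4343, 3732 UMIs) in Schwann-like cells, against 33.8 CPM in macrophage-like, 12.1 CPM in fibroblast-like and 27.3 CPM in endothelial-like cells. The single Schwann-like cells ran from 0 to 17465 CPM of Mbp with a median of 2412 CPM, and 111 of 126 held at least 1 UMI of it. Pmp22 was at 5461 CPM (5309 to 5617), against 700.2 CPM in macrophage-like, 423 CPM in fibroblast-like and 171 CPM in endothelial-like cells. Pmp22 was thus the member with the highest level outside the Schwann-like class. Its level in Schwann-like cells was 6501 CPM with suffix 1 and 4385 CPM with suffix 2.

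Prx stood at 517 CPM (471 to 567) in Schwann-like cells, 631 CPM with suffix 1 and 399 CPM with suffix 2. It was at 0.805 CPM in macrophage-like, 2.15 CPM in fibroblast-like and 3.0 CPM in endothelial-like cells. Mag was at 168 CPM (142 to 197) in Schwann-like cells, against 3.30 CPM in macrophage-like, 0.148 CPM in fibroblast-like and 0.546 CPM in endothelial-like cells. Both genes were thus low in all 3 other classes, with Mag highest among them in the macrophage-like one.

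Sox10 was at 174 CPM (147 to 203) in Schwann-like cells and at 0.161, 0.222 and 1.09 CPM in macrophage-like, fibroblast-like and endothelial-like cells. Sox10 was the member most confined to the class in these cells, since 93.9% of all its UMIs lay there, followed by Prx with 83.8%, S100b with 80.8%, Mbp with 73.5% and Mag with 69.0%. S100b was at 433 CPM (391 to 478), against 0.402, 3.63 and 0.819 CPM in the same 3 classes. The remaining genes were spread more widely, with 29.6% of the UMIs of Ngfr, 20.5% of those of Pmp22 and 8.30% of those of Ncam1 in Schwann-like cells.

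Ngfr was at 82.3 CPM (64.5 to 103) in Schwann-like cells, but at 39.9 CPM with suffix 1 and at 126 CPM with suffix 2. It was at 0.161, 1.85 and 1.91 CPM in macrophage-like, fibroblast-like and endothelial-like cells. Ncam1 was at 108 CPM (87.6 to 132) in Schwann-like cells and at 60.7 CPM in fibroblast-like cells, with 0.0805 CPM in macrophage-like and 1.91 CPM in endothelial-like cells. The 2 suffixes gave 106 and 110 CPM of Ncam1 in Schwann-like cells. Ncam1 was thus the only member whose Schwann-like level lay within 2-fold of that of one of these 3 classes.

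**Figure D1:**
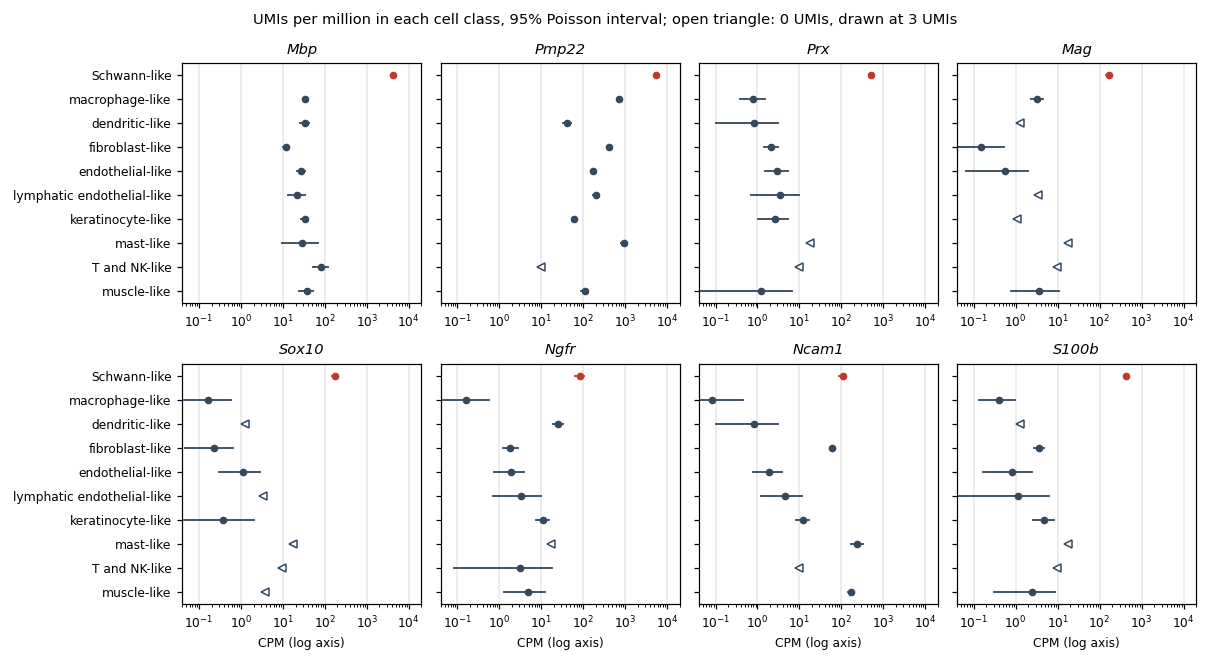
Level of each of the 8 genes in 10 cell classes, in CPM on a log axis, with points for the sum over the cells of a class, bars for the exact 95% Poisson interval and open triangles at 3 UMIs for classes with none. The Schwann-like class (red) is the highest for 7 of the 8 genes, and for Ncam1 the mast-like and muscle-like classes lie above the 108 CPM of the Schwann-like class as a whole.

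Set against all other cells together, 8 of 8 members were at least 2-fold higher in Schwann-like cells, where 22.5% of the 15232 genes with at least 20 UMIs were at least 2-fold higher and 15.5% at least 2-fold lower. The median log2 ratio was 7.12 for the 8 genes and 0.05 for all genes. The order of the log2 ratios was Sox10 (9.76, 95% interval 8.84 to 10.85), Prx (8.18, 7.85 to 8.52), S100b (7.89, 7.56 to 8.24), Mbp (7.28, 7.19 to 7.37), Mag (6.97, 6.54 to 7.41), Ngfr (4.56, 4.15 to 4.96), Pmp22 (3.86, 3.82 to 3.91) and Ncam1 (2.35, 2.03 to 2.65). The intervals of Prx and S100b overlap each other, as do those of Mbp and Mag. Part of this pattern is built in, because the cells were grouped by genes that vary with these ones.

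Against macrophage-like cells alone, 8 of 8 members were at least 2-fold higher (33.2% of genes were, and 16.7% at least 2-fold lower), with Pmp22 the least apart at a log2 ratio of 2.96. Against endothelial-like cells it was also 8 of 8 (20.3% of genes higher and 18.0% lower). Against fibroblast-like cells it was 7 of 8 (22.7% of genes higher and 13.6% lower), and Ncam1 had a log2 ratio of 0.83 (0.51 to 1.14). That ratio was 0.18 (-0.27 to 0.60) with suffix 1 and 2.29 (1.79 to 2.78) with suffix 2, and the fibroblast-like level behind it was 93.9 CPM and 22.5 CPM. Of the 818 fibroblast-like UMIs of Ncam1, 686 lay in the cluster led by Prlr, Slc26a7 and Pappa2. Its level was 205 CPM with suffix 1 and 183 CPM with suffix 2. That cluster had 78 of its 110 cells with suffix 1, whereas fibroblast-like cells as a whole had 318 of 827.

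Counted by cells, after each cell was thinned to 2000 UMIs, Mbp was found in 85 of 112 Schwann-like cells (75.9%, 95% interval 66.9 to 83.5) and Pmp22 in 99 (88.4%, 81.0 to 93.7). Keratinocyte-like cells, which should lack most of the 8 genes, gave Mbp in 2 of 73 (2.74%) and Pmp22, spread more widely, in 9 (12.3%). Their median depth was 20204 UMIs before thinning, against 4961.5 in Schwann-like cells. Thinned shares of Schwann-like cells were 42.9% for Prx, 28.6% for Mag, 30.4% for Sox10, 41.1% for S100b, 17.9% for Ncam1 and 14.3% for Ngfr. In keratinocyte-like cells Prx and Mag were in 0 of 73, which allows a share of up to 4.11%, Sox10 and S100b were in 1 each and Ncam1 in 2. The keratinocyte-like class also held the 6 melanocyte markers at a summed 239 CPM, of which Dct made 154 CPM. What part such cells or transcripts have in its shares was not tested. Ngfr, which basal keratinocytes are known to carry, was in 5 (6.85%, 2.26 to 15.3), an interval that overlaps the Schwann-like one of 8.39 to 22.2. Without thinning, Schwann-like cells had shares from 23.0% for Ngfr to 94.4% for Pmp22.

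Within the Schwann-like class the 8 genes did not rise and fall as 1 block. Sub-clustering, again without them, gave 43 myelinating cells (23 with suffix 1 and 20 with suffix 2) and 31 non-myelinating cells (10 and 21). These groups were named from markers such as Drp2 and Cldn19 or L1cam and Chl1. The other Schwann-like cells were not named, with 27 led by Msc and Des and 25 led by Igfbp6 and Dcn. Summed myelinating markers were at 43788 CPM in the myelinating and 662 CPM in the non-myelinating cells, and summed non-myelinating markers at 278 CPM and 3769 CPM. The Igfbp6 Dcn-led cells held the 8 fibroblast markers at a summed 10924 CPM, of which Dcn made 7660 CPM and with Dpt at 0, against 1353 to 1469 CPM in the other 3 groups. They also held 9 of 11 macrophage markers at 20 CPM or more, summed to 1195 CPM. Macrophage markers were at a summed 3725 CPM in the non-myelinating cells, of which Lyz2 made 3700 CPM, with 6 of 11 markers at 0 and Adgre1 among them, against 75.5 CPM in the myelinating cells. What part these transcripts have in the levels below was not tested.

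In myelinating against non-myelinating cells, 5 of 8 members were at least 2-fold higher, where 17.6% of 3581 genes were, and 2 of 8 at least 2-fold lower, where 16.3% of genes were. The median log2 ratio was 2.06 for the 8 genes and -0.08 for all genes. The 5 higher genes were Prx, Mag, Mbp, Pmp22 and S100b, the 2 lower ones were Ncam1 and Ngfr, and Sox10 was within 2-fold. The marker lists that named these groups hold other myelin and Remak genes, so the direction of the myelin genes is in part given by how the groups were made.

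Prx gave 345 UMIs in the 43 myelinating cells, 1184 CPM, and 0 UMIs in the 31 non-myelinating cells, so that it was at least 5.98 higher on the log2 scale, taking 3 UMIs as the limit of a count of 0. A looser cell filter, which gave 46 myelinating and 77 non-myelinating cells, put UMIs of Prx in the latter as well and a log2 ratio of 3.72 (3.23 to 4.24). Single myelinating cells ran from 0 to 3677 CPM with a median of 1158 CPM, and 41 of 43 held Prx. Mag was at 364 CPM (106 UMIs) and 6.25 CPM (1 UMI), a log2 ratio of 5.86 with a wide interval of 3.35 to 11.18. It was found in 32 of the 43 myelinating cells and in 1 of the 31 others. Under the looser filter it was 2.53 (1.78 to 3.34). At most 1 UMI of Prx or Mag was thus seen in the non-myelinating cells of the main filter, at a depth where 0 UMIs still allow 18.7 CPM, and more under the looser one.

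Mbp was at 9084 CPM in myelinating and at 431 CPM in non-myelinating cells, a log2 ratio of 4.40 (4.05 to 4.76), and of 3.04 (2.91 to 3.19) under the looser filter. Every myelinating cell held Mbp, from 2209 to 17465 CPM with a median of 8592 CPM, whereas the non-myelinating cells ran from 0 to 2947 CPM with a median of 457 CPM. The ranges of single cells overlapped between 2209 and 2947 CPM. Pmp22 was at 11206 CPM and 1506 CPM, a log2 ratio of 2.90 (2.71 to 3.09), and was found in 27 of the 31 non-myelinating cells, with a median of 1327 CPM. The non-myelinating cells of the main filter thus held Mbp and Pmp22 transcripts and no UMI of Prx.

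**Figure D2:**
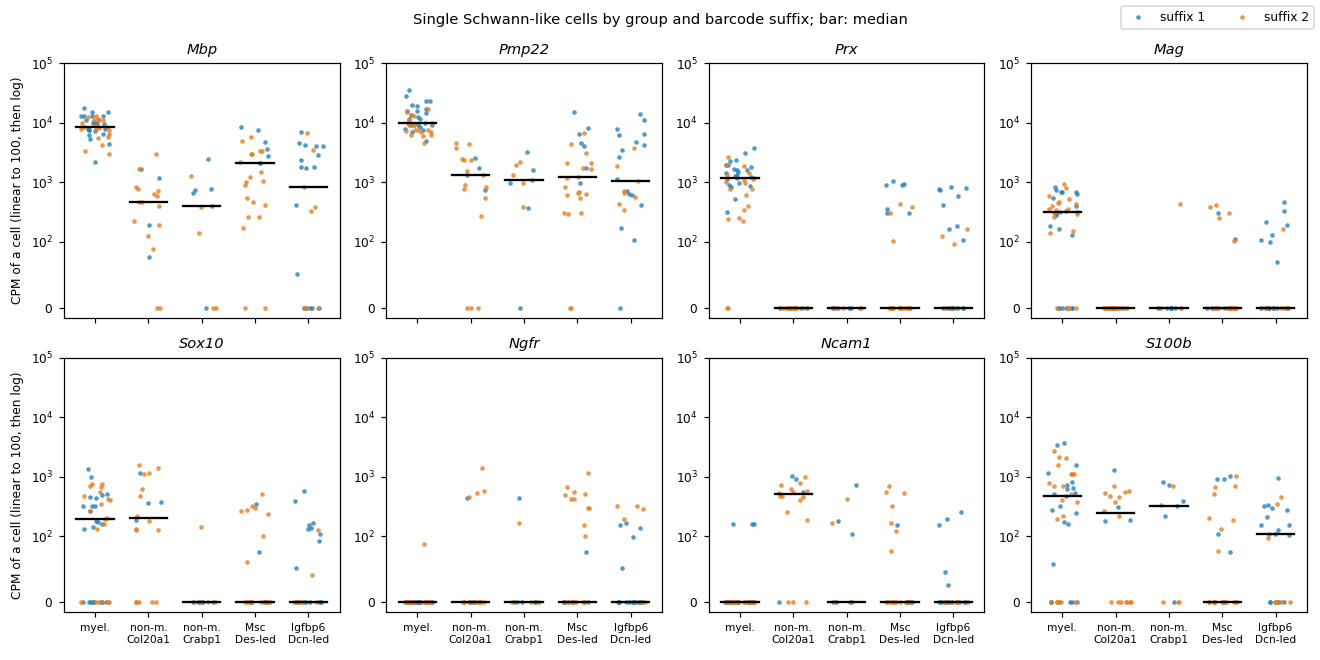
CPM of each of the 8 genes in every Schwann-like cell, 1 point a cell, coloured by barcode suffix, in 5 sub-clusters, on an axis that is linear up to 100 CPM and logarithmic above, with a bar at the median. The myelinating cells hold Mbp from 2209 to 17465 CPM and Prx in 41 of 43 cells, the non-myelinating cells hold no Prx, and Ncam1 lies mostly in the Col20a1 Tinagl1-led cells.

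The promoters of 3 of these genes are shown because they had the highest ratios among the members with an entry in the promoter table (RefSeq, GRCm38.p6), each from 250 bases before to 50 bases after a transcript start. Pmp22 (chromosome 11, 63128982 to 63159547, plus strand, GRCm38) has 4 such starts in the table. An upstream start of this gene is known mainly from myelinating Schwann cells and a downstream one from other tissues, and 3' UMIs do not tell them apart. The first and the last window are given. Prx lies on chromosome 7 from 27499324 to 27520214 on the plus strand, and Mag on chromosome 7 from 30899176 to 30914873 on the minus strand. Capitals mark matches, on either strand, to the SOX motifs ACAAAG and ACAATG and to the EGR core GTGGGNG, which does not overlap them in letters. Sox10 and Egr2 are the factors known to drive myelin genes together.
Pmp22 first start, chr11:63128732-63129031, plus strand: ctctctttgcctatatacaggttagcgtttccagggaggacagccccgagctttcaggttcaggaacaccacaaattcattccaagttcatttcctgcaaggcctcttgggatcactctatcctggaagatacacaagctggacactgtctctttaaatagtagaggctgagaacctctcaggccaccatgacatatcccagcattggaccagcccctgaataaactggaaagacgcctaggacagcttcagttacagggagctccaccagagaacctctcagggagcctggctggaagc
Pmp22 last start, chr11:63132553-63132852, plus strand: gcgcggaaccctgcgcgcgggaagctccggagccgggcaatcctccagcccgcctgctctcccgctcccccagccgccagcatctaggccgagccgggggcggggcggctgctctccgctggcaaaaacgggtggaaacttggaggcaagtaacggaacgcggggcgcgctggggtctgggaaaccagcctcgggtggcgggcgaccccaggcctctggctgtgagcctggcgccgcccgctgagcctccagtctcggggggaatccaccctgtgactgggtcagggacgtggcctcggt
Prx, chr7:27499074-27499373, plus strand: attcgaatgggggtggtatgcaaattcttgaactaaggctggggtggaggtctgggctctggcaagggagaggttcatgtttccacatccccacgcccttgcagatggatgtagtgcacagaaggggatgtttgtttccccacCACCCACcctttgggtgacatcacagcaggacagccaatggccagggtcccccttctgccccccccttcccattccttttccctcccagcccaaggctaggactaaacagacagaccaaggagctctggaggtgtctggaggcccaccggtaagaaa
Mag first start, chr7:30914873-30915172, minus strand: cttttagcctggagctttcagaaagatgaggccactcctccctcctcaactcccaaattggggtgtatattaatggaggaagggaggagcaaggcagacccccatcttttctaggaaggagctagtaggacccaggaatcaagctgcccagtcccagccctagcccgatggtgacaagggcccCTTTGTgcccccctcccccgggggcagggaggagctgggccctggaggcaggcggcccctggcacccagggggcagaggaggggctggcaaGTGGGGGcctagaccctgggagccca

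Neither window of Pmp22 shown holds a match, nor do the 2 between them. The Prx window holds the EGR core from -107 to -101 before the start, on the opposite strand. The Mag window holds ACAAAG on the opposite strand from -67 to -62 and the EGR core from 24 to 30 after the start. In all, 5 of the 8 genes matched 10 promoters in the table, of which 2, both of Mag, held a SOX motif and 3 held the EGR core. The 2 Mag windows overlap and hold the same sites, so these are 1 SOX site and 2 EGR sites. Of 32851 promoters in the table, 28.6% held a SOX motif and 31.56% the EGR core, so these matches are common. GC content rose from 50.67% in the first to 72.33% in the last Pmp22 window, and the median of all promoters was 52.67%. Ngfr (chromosome 11, 95568818 to 95587735, minus strand) and S100b (chromosome 10, 76253853 to 76261159, plus strand) had no match. Sox10 (chromosome 15, 79154908 to 79165240, minus strand), Ncam1 (chromosome 9, 49502136 to 49798925, minus strand) and Mbp are named only.

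S100b was at 838 CPM (244 UMIs) in myelinating and 356 CPM (57 UMIs) in non-myelinating cells, a log2 ratio of 1.23 (0.81 to 1.68). The ratio was 0.62 (-0.02 to 1.31) with suffix 1 and 1.69 (1.12 to 2.29) with suffix 2. S100b was found in 32 of 43 and in 20 of 31 cells. It thus marked both groups, and its 2-fold difference rested on suffix 2.

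Sox10 had nearly the same level in both groups, 251 CPM (73 UMIs) and 269 CPM (43 UMIs), with a log2 ratio of -0.10 (-0.66 to 0.48) and single cells up to 1343 and 1560 CPM. The non-myelinating cells were however made of a pair of sub-clusters that differed in it. In the 20 cells led by Col20a1 and Tinagl1, Sox10 was at 376 CPM (42 UMIs), and in the 11 cells led by Crabp1 and Gfap at 20.7 CPM (1 UMI), a log2 ratio of 4.19 (1.63 to 9.52). Myelinating over Col20a1 Tinagl1-led cells gave -0.59 (-1.15 to -0.00), and myelinating over Crabp1 Gfap-led cells 3.60 (1.08 to 8.92), a comparison in which 23.2% of genes were at least 2-fold higher and 13.9% at least 2-fold lower. The level of Sox10 in non-myelinating cells therefore depended on which of these cells were counted.

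The Lyz2 transcripts noted above were also divided between these sub-clusters, at 5107 CPM in the Col20a1 Tinagl1-led and 454 CPM in the Crabp1 Gfap-led cells. The former came mostly from suffix 2 (16 of 20 cells) and the latter from both (6 and 5 cells). Ncam1 was at 511 CPM and 165 CPM in the same order, a log2 ratio of 1.63 (0.55 to 2.91). The other members lay closer together, with Mbp at 421 and 454 CPM, S100b at 358 and 351 CPM, Pmp22 at 1667 and 1136 CPM and Ngfr at 116 and 103 CPM. Of the genes with at least 20 UMIs, 12.3% were at least 2-fold higher and 10.0% at least 2-fold lower in Col20a1 Tinagl1-led than in Crabp1 Gfap-led cells.

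Ncam1 was at 10.3 CPM (3 UMIs, in 3 of 43 cells) in myelinating and at 406 CPM (65 UMIs, in 21 of 31 cells) in non-myelinating cells, a log2 ratio of -5.30 (-7.62 to -3.69). Ngfr was at 6.87 CPM (2 UMIs, in 1 cell) and 112 CPM (18 UMIs, in 7 cells), a log2 ratio of -4.03 (-7.19 to -1.97). Both were thus lower in myelinating cells, Ngfr on few UMIs. Ngfr was highest in the unnamed Msc Des-led cells, at 173 CPM, of which 20 of 27 had suffix 2.

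The direction of each ratio past 2-fold was the same in both libraries, although with suffix 1 the ratio of S100b lay within 2-fold. Ngfr gave at least 2.41 lower on the log2 scale with suffix 1 (0 and 7 UMIs), and Ncam1 at least 4.16 lower with suffix 2 (0 and 35 UMIs). For Mbp the ratios were 3.97 and 4.75, and for Pmp22 3.24 and 2.54.

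**Figure D3:**
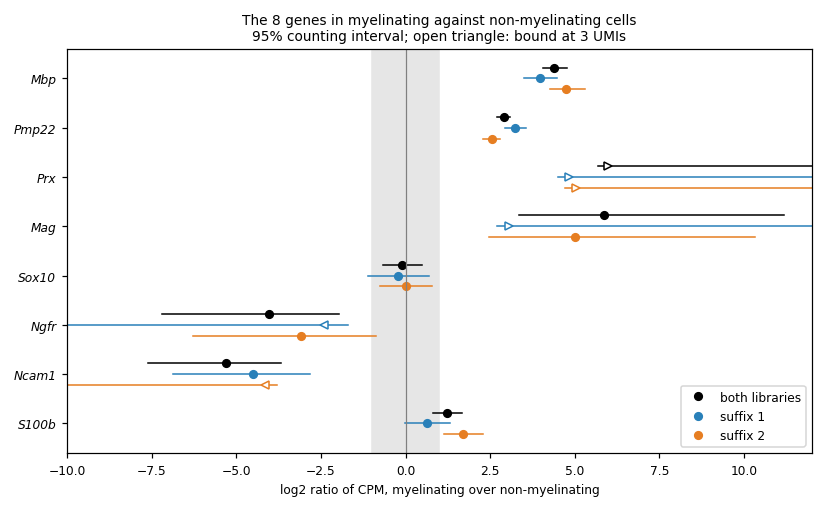
Log2 ratio of CPM in myelinating over non-myelinating cells for the 8 genes, for both libraries (black), suffix 1 (blue) and suffix 2 (orange), with exact 95% counting intervals and open triangles for bounds where 1 side had 0 UMIs, whose bars run to the frame. The grey band spans 2-fold, and Prx, Mag, Mbp and Pmp22 lie to its right, Ncam1 and Ngfr to its left and Sox10 inside it at -0.10.

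Per cell, the members separated the same way. All of Mbp, Pmp22, Prx and Mag were found together in 31 of 43 myelinating and 0 of 31 non-myelinating cells, and Ngfr or Ncam1 in 4 of 43 and 23 of 31. All 8 genes were found together in 2 of 126 Schwann-like cells, and none of the 8 in 1. After thinning to 2000 UMIs, Prx was in 37 of 40 myelinating cells (92.5%, 79.6 to 98.4) and 0 of 24 non-myelinating cells, which allows a share of up to 12.5%. Ncam1 was in 1 of 40 (2.50%, 0.0633 to 13.2) and 13 of 24 (54.2%, 32.8 to 74.4). Unthinned, these shares were 95.3% and 0% for Prx and 6.98% and 67.7% for Ncam1, at median depths of 4942 and 5237 UMIs.

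Summed over their cells, the Msc Des-led and Igfbp6 Dcn-led groups lay between the named groups for the myelin genes. Mbp was at 2555 CPM and 2234 CPM in them, Pmp22 at 2736 and 3224 CPM, Prx at 263 and 261 CPM and Mag at 105 and 92.4 CPM. Single cells ran from 0 to 8566 CPM of Mbp in the former group and from 0 to 6910 CPM in the latter. The sums therefore need not describe a typical cell. Sox10 was at 97.7 and 82.5 CPM and S100b at 195 and 188 CPM, both below their levels in the myelinating and non-myelinating cells. Left without the Igfbp6 Dcn-led cells, the Schwann-like class gave 5228 CPM of Mbp, 6621 CPM of Pmp22, 650 CPM of Prx and 73.6 CPM of Ngfr, and the log2 ratios over other cells ran from 2.74 for Ncam1 to 10.11 for Sox10.

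Outside Schwann-like cells, Pmp22 was the member with the most UMIs, and macrophage-like cells differed among themselves in it. Of their 5 clusters, the one led by Cd209f and Ccl8 had 1392 CPM of Pmp22 (4428 UMIs) and the one led by Spp1 and Trem2 had 103 CPM (185 UMIs). The log2 ratio was 3.76 (3.55 to 3.98), a 13.5-fold difference, with 3.77 and 3.74 in the 2 libraries. The Ccl3 Ccl4-led macrophage-like cluster stood at 1003 CPM and mast-like cells at 925 CPM, levels that were not apart beyond counting error, with mast-like cells at 612 CPM and 1297 CPM by suffix. T and NK-like cells gave 0 UMIs of Pmp22, which allows up to 9.66 CPM, and the 5 fibroblast-like clusters ran from 307 to 523 CPM.

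Among all clusters, the highest level of Mbp after the Schwann-like one was 105 CPM in the dendritic-like cluster led by Apol7c, Ccl22 and Ccr7, followed by 80.5 CPM in T and NK-like cells and 76.0 CPM in the Acta1-led muscle-like cluster. These 3 levels did not differ beyond counting error. Keratinocyte-like cells, which should lack Mbp, had 33.0 CPM of it (26.5 to 40.6), a level not apart from the 33.8 CPM of macrophage-like cells. The lowest cluster, the Prlr-led fibroblast-like one, had 1.18 CPM (0.323 to 3.03). What share of the low levels comes from free RNA was not tested. The Mbp locus also makes golli transcripts, known from immune cells, which share exons with it, and counts per gene do not separate them from myelin Mbp. Among macrophage-like clusters Mbp ran from 13.8 CPM in the Cd209f Ccl8-led to 50.2 CPM in the Dcstamp-led one, the former being the one highest in Pmp22.

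Mag had 41 UMIs in 38 macrophage-like cells (3.30 CPM, 2.37 to 4.47) and 2 in fibroblast-like cells (0.148 CPM, 0.0180 to 0.536). In the thinned cells these were 13 of 1152 (1.13%) and 0 of 780, which allows up to 0.385%. The macrophage-like UMIs of Mag were 36 with suffix 1 and 5 with suffix 2, at 3.70 and 1.84 CPM. Mag is a member of the Siglec family, whose other genes are mostly genes of immune cells.

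Ncam1 was higher in 3 clusters than in the Schwann-like class as a whole, whose level sums over myelinating and non-myelinating cells. The non-myelinating cells by themselves had a higher summed level than each of the 3 clusters. The 3 clusters were the muscle-like cluster led by Erfe and Gal at 303 CPM, mast-like cells at 239 CPM and the fibroblast-like cluster led by Prlr, Slc26a7 and Pappa2 at 203 CPM, and neighbours in this order were not apart beyond counting error. The same 3 clusters had 327, 257 and 205 CPM with suffix 1 and 278, 216 and 183 CPM with suffix 2. Fibroblast-like clusters differed widely, with 686 UMIs in the Prlr-led cells and 1 UMI in the Myoc-led cells, a log2 ratio of 9.45 (6.97 to 14.76). Ncam1 transcripts in satellite cells and young muscle fibres are well known.

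Ngfr had its next highest level, after Schwann-like cells, in the dendritic-like cluster led by Timd4, Cd7 and Cd209e, at 28.6 CPM (60 UMIs, 21.8 to 36.8), with 29.6 and 27.2 CPM by suffix. Keratinocyte-like cells followed at 11 CPM (7.42 to 15.7), apart from that cluster by a log2 ratio of 1.38 (0.72 to 2.06). Prx, Mag, Sox10 and S100b were low in every other cluster, with highest levels of 4.74, 5.36, 1.53 and 8.00 CPM.

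**Figure D4:**
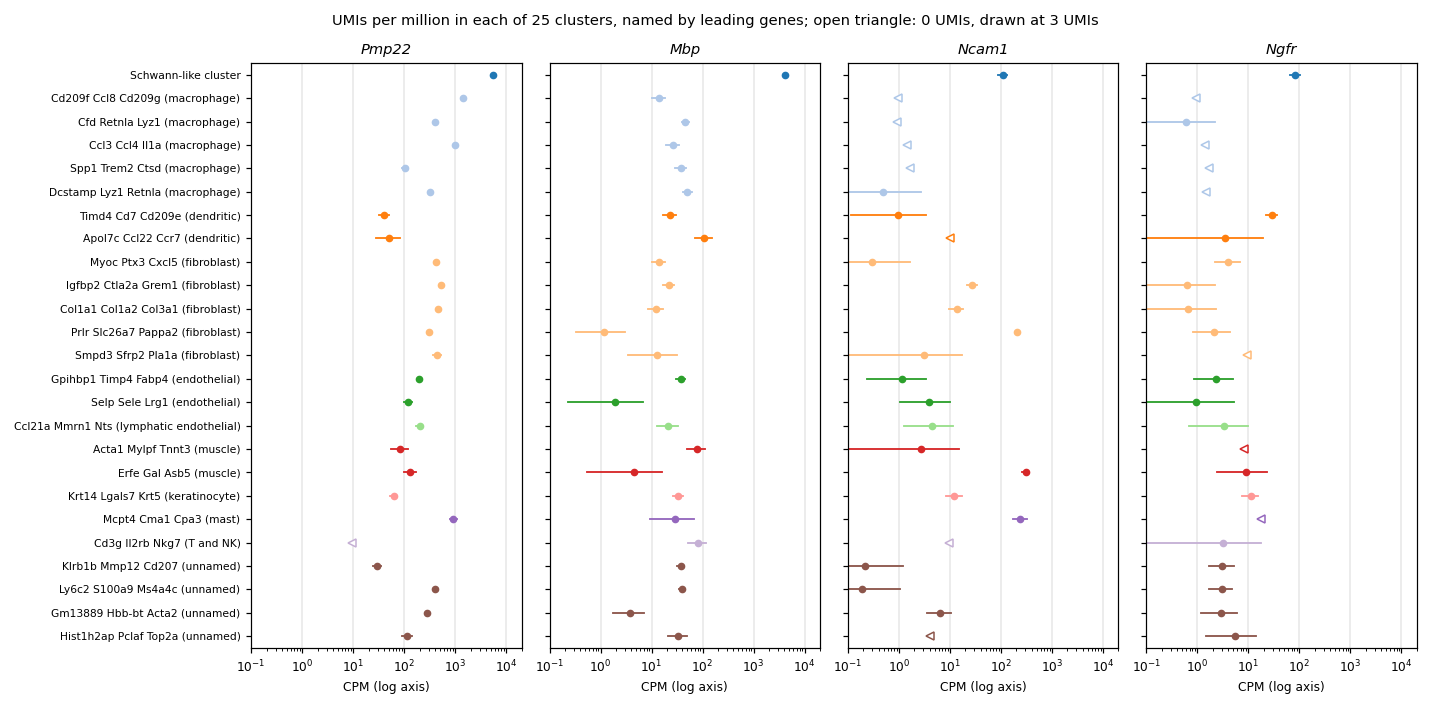
Level of the 4 members found outside Schwann-like cells in each of 25 clusters, named by leading genes, in CPM on a log axis with exact 95% Poisson intervals and open triangles at 3 UMIs for clusters with none. Pmp22 runs from 103 to 1392 CPM over the macrophage-like clusters, and Ncam1 stands at 203 CPM in 1 fibroblast-like cluster, above the 108 CPM of the Schwann-like cluster as a whole.

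Other genes of the same pathways were read from lists, of which several also served as markers. Their counts stand against the 22.5% of all genes that were at least 2-fold higher and the 15.5% lower in Schwann-like cells, and the 17.6% higher and 16.3% lower in myelinating over non-myelinating cells, with all-gene medians of 0.05 and -0.08. In Schwann-like over all other cells, 8 of 8 genes of compact myelin were at least 2-fold higher, 7 of them markers, with Ugt8a, an enzyme of myelin galactolipids, at a log2 ratio of 9.63 and Fa2h, which hydroxylates myelin lipids, at 3.88. Mpzl2, the gene of these that is no marker, had its 20 Schwann-like UMIs all in the Igfbp6 Dcn-led cells. Mpzl2 and Fa2h were highest in keratinocyte-like cells, at 51.7 and 120 CPM against 22.5 and 103 CPM in Schwann-like cells. All 9 genes of non-compact myelin, junctions and nodes were higher, 6 of them markers, with Gjb1, the connexin of the myelin folds, at 10.62 and Cadm4, an adhesion molecule that binds axons, at 7.47. Between myelinating and non-myelinating cells, 6 of 7 compact myelin genes tested were higher, Ugt8a at 5.05 (3.17 to 8.12, 2 UMIs in the latter), but all 7 are markers that served in naming the cells or groups. For junctions it was 8 of 9, of which 2 are no markers, without Cadm4 at -0.72 (-1.13 to -0.30). The list medians were 8.96 and 8.04 over other cells, and 5.05 and 3.42 between the groups. Drp2, a myelinating marker that binds Prx in the outer membrane, was at 1123 CPM in myelinating and 6.25 CPM in non-myelinating cells, a log2 ratio of 7.49 (5.0 to 12.80, 1 UMI in the latter).

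Of the transcription factors of the lineage, 5 of 9 tested were higher in Schwann-like cells, among them Pou3f1, which precedes myelination, at 5.33 and Egr2, its main activator, at 2.98. Jun was at 1.45, and Yap1 and Zeb2 were both at -0.09. At 1860 CPM in Schwann-like cells, Jun was below its 5691 CPM in mast-like, 2366 CPM in keratinocyte-like and 2320 CPM in lymphatic endothelial-like cells. In myelinating cells Egr2 (1.55), Pou3f1 (1.34) and Sox2 (1.41) were at least 2-fold higher than in non-myelinating cells, and the other 4 of 7 tested were not. Egr2 is a myelinating marker, so its direction is in part given by the naming, and Pou3f1 is no marker. Sox2, a factor of immature Schwann cells, stands in the list of non-myelinating markers and went the other way. The list medians were 1.45 and 0.87.

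Of genes of axon-glia signalling, 11 of 13 were higher in Schwann-like than in other cells, led by Gfra3, a receptor for artemin, at 9.53 and Dhh, a Schwann-derived hedgehog ligand, at 7.63. Dag1, which encodes the dystroglycan that Prx reaches, was at 3.01. Itga6 stood at 390 CPM in Schwann-like and 424 CPM in keratinocyte-like cells. Between myelinating and non-myelinating cells, 3 of 9 tested were higher, Dhh (2.69), Itga6 (2.57) and Gfra1 (1.27), and 3 were lower, Lgi4 (-3.03), Erbb3 (-1.13) and Gfra3 (0 and 65 UMIs, at least 5.30 lower on the log2 scale). The 3 lower genes are all Schwann markers and the 3 higher ones are none, and the list medians were 3.49 and -0.12. Dag1 was within 2-fold, at -0.12 (-0.46 to 0.23).

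Of the neurotrophins and the partners of Ngfr, 4 of 12 tested were higher in Schwann-like cells, Sorcs2 (4.89) and Sort1 (2.78), both sortilin-type receptors, Ntrk2 (1.61) and Ntrk3 (1.30), and none of the 12 was lower. Ntrk3 stood however at 11.3 CPM (10 UMIs) in Schwann-like and 14.0 CPM in fibroblast-like cells. Ntrk2 was at 69.9 and 59.5 CPM in the same order, with 157 CPM in the fibroblast-like cluster led by Smpd3 and Sfrp2. The list median of 0.10 lay next to the 0.05 of all genes, so the list as a whole did not stand out from them. Between myelinating and non-myelinating cells 4 were tested and 2 were lower, as was Ngfr, namely Sorcs2 at -5.51 (1 and 25 UMIs, -10.87 to -2.90) and Ntrk2 at -3.07 (-4.39 to -1.95). Of Ncam1 relatives, 4 of 7 were higher in Schwann-like cells and St8sia4, which adds polysialic acid to Ncam1, was lower at -4.19 (3 UMIs, -6.47 to -2.65). The other enzyme of that reaction, St8sia2, was higher at 3.42 (1.42 to 4.99), on 4 UMIs, all in Col20a1 Tinagl1-led cells. Between the groups, L1cam (at least 5.14 lower on the log2 scale) and Chl1 (-6.45), both markers, went with Ncam1, and Nrcam, of the nodes, went against it at 1.60.

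Relatives of S100b, Pmp22 and Mag were read in the same way. Of 7 other S100 genes, none was at least 2-fold higher in Schwann-like cells, S100a11 was lower at -1.18, and 4 of 7 were lower in myelinating than in non-myelinating cells, S100a10 the most at -2.01, where S100b was higher. The median log2 ratios of these S100 genes were 0.19 and -1.08. Of the 3 other genes of the Pmp22 family, Emp2 was higher in Schwann-like cells at 2.96. In myelinating against non-myelinating cells, Emp1 was lower at -2.22 and Emp3 at -6.32 (3 and 132 UMIs, -8.62 to -4.75), opposite to Pmp22, whereas Emp2 stood on the same side as Pmp22 at 0.82 (0.31 to 1.35), within 2-fold. Of 6 other Siglec genes, 5 were lower in Schwann-like cells. Of 5 neuronal genes only Tubb3 had at least 20 UMIs, and Snap25 and Scn10a had none in any kept cell.

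The genes most like each member over the 25 clusters were taken by Pearson's r of log2(CPM + 10), with points that share both libraries and differ in depth. For a gene nearly confined to the Schwann-like cluster, r is set by that 1 point and says nothing of the division within it. Sox10 was closest to the connexin gene Gjc3 (r = 1.00), Prx to Gfra3 (0.990), although Prx had 345 and 0 UMIs and Gfra3 0 and 65 UMIs in myelinating and non-myelinating cells. By the same measure the nearest were for S100b Slc36a2 (0.989) and for Mag Vat1l (0.970). Mbp was closest to Bcas1 (0.874). Pmp22 was closest to Armcx3 (0.825) and Ncam1 to Grik5 (0.878), both highest in mast-like cells, and Ngfr to Mt3 (0.863), highest in Schwann-like cells.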

How the data were processed

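The authors deposited 1 matrix of whole-number UMI counts per gene and barcode, without normalization, which the submitters' processing notes tie to Cell Ranger 4.0.0 and the mm10 build. The sources used here do not give a filter on cells before deposit. Barcode suffixes 1 and 2 mark the libraries, and no source used here links them to an age.

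Barcodes were kept from 500 genes and 1000 UMIs upwards where mitochondrial genes took no more than 10% of UMIs (3797 of 5257). Counts were scaled to 10000 per cell and logged. From the 2000 most variable genes, with the 8 members left out, a graph of 15 neighbours was built on 30 principal components in Python 3.11.15 and scanpy 1.11.5. Leiden clustering with resolution 1 and seed 1 divided it into 25 clusters (igraph 0.11.9, leidenalg 0.10.2). A cluster was named where at least 3 markers of a list reached 20 CPM and 2 times the median cluster, with a lead of 0.5 in mean log2 excess over the next list (pseudocount 10 CPM). It stayed unnamed where its 10 leading genes held more markers of another list. Schwann-like cells were sub-clustered likewise with 1000 variable genes and 10 components, and a group was named where at least 3 markers and a mean log2 excess of 1 or more favoured a single list. The naming rule and the sub-cluster settings were chosen with the clusters already seen. Doublets were not removed. Scrublet scores of 0.2 or more, an alternative, held 42 cells, 1 of them Schwann-like.

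UMIs were summed per class and divided by its total, with exact 95% Poisson intervals, and ratios have exact intervals from both sums (numpy 2.4.6, scipy 1.17.1). A count of 0 was replaced by a limit of 3 UMIs. Ratios were taken for all genes with at least 20 UMIs in the classes compared and called past 2-fold. Shares of cells used exact Clopper-Pearson intervals after thinning to 2000 UMIs, which left out 14 of 126 Schwann-like cells. PCR duplicates are collapsed by UMIs, and intervals cover counting error only. The ratio step was tested on simulated counts. The text names the 8 members, the genes of 10 nerve and family lists, the markers, and the 3 genes most like each member among those with at least 50 UMIs. The members and lists were chosen with earlier results of these data known. Gene positions came from GENCODE vM21 and promoters from RefSeq, with no sequence shown for Mbp. Alternatives included other cell filters, resolutions, scalings (edgeR 4.0.16 for TMM), each library by itself and classes set per cell.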

Additional observations from a re-analysis of the deposited data

Results flagged for a closer look

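The 1460 barcodes that failed the filters enter no comparison above, 1149 of them because of their mitochondrial share, and they held 5403713 UMIs in all. Each of the 8 genes stood in them above the 0.555 CPM that a count of 0 would allow. Mbp was at 585 CPM and Pmp22 at 582 CPM, with UMIs in 158 and 444 of the barcodes. Prx was at 62.4 CPM, Mag at 12.4 CPM and Sox10 at 13.9 CPM, and Ngfr was at 7.77 CPM, Ncam1 at 48.7 CPM and S100b at 52.2 CPM. All of these levels lay below those of the kept Schwann-like cells.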

How the results depend on the processing

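No paired analysis was possible because the matrix holds 1 library per age and its barcodes carry no sample, and no replicate could be left out. Of 157 counts and orders recomputed under the alternatives, 142 moved by less than 1.5 times or not at all and 15 moved more. Other values recomputed under the alternatives moved more often, with 167 labelled as moved and 561 as the same. No call past 2-fold turned its direction. The highest class was Schwann-like for 7 of the 8 genes in the main setting, and 8 of 8 were at least 2-fold higher there than in other cells.

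Genes at least 2-fold higher in Schwann-like than in other cells numbered 3421, and 2263 under TMM scaling, which shifts the log2 ratios by -0.39. Genes higher in myelinating than in non-myelinating cells numbered 629, against 374 with suffix 1 alone, 399 with suffix 2 alone and 1447 without the filter on low counts. Genes lower there numbered 584, against 273 and 341 by suffix, 1767 without the filter on low counts, 921 under the looser cell filter and 373 without the 20-cell Col20a1 Tinagl1-led sub-cluster. The 2 lower members, Ngfr and Ncam1, became 1 with either suffix alone, with classes set per cell, with Schwann-like cells divided per cell and without the 11-cell sub-cluster, and 0 without the 20-cell sub-cluster. With Schwann-like cells divided per cell Ngfr fell within 2-fold, at -0.99, and in the other settings the members lost had under 20 UMIs in the groups compared. Leaving out each non-myelinating sub-cluster or the Igfbp6 Dcn-led cells was chosen after seeing the data.

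For Sox10 the myelinating ratio ran from -0.59 to 3.60, the latter without the 20-cell sub-cluster, for S100b from 0.62 to 2.03, for Ngfr from -6.00 to -0.99, for Mag from 2.53 to 6.10, for Prx from 3.72 to 7.73 and for Mbp from 3.04 to 4.75. The lowest values of Mag, Prx and Mbp came with the looser cell filter, which raised the non-myelinating cells from 31 to 77. The stricter cell filter left 36 Schwann-like cells, 9 of them myelinating and 0 non-myelinating, so it gave no value for that comparison. Few cells and UMIs limit Ngfr, Ncam1 and Mag the most.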
